A study of Mus musculus with 8 samples.

Results

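The genes of the cytosolic ribosomal proteins were followed through RNA sequencing libraries of B cells sorted from mouse bone marrow. Members were the genes whose symbol is Rpl or Rps with a number and at most 1 of the letters a, l or x, together with Rplp0, Rplp1, Rplp2 and Rpsa. This gave 82 of the 24746 genes in the table. The rule takes in tissue-restricted paralogs (Rpl3l, Rpl10l, Rpl39l) and transcribed copies of retrotransposed origin (Rps4l, Rpl32l). It leaves out a few true ribosomal protein genes with other names, among them Fau and Rps3a1.

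The 4 control mice were miR-15a/b +/+ Vav-Cre and the 4 miR-15 dKO mice (below dKO) were miR-15a/b fl/fl Vav-Cre, all aged 10 to 12 weeks. Cre was therefore present in controls too. The Vav promoter drives it across the blood system, so that the loss of both miR-15/16 clusters was not limited to B cells. The cells are named B1a B cells in the sample labels and pro-B cells in the design text of the series. Whether the replicates came from separate sorts is not stated, and p-values measure the spread between these libraries.

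Ribosomal proteins are made in near-equal numbers, travel to the nucleolus and are built with ribosomal RNA into the small (Rps) and the large (Rpl) subunit. Their messages begin with a cytosine and a run of pyrimidines, the 5′ terminal oligopyrimidine (5′ TOP) motif, through which mTORC1 and the RNA-binding protein LARP1 set their translation, so message level and protein output can move separately. In B cells, ribosome production climbs on activation and before plasma cell differentiation, while resting cells keep it low. The microRNAs of the miR-15/16 family are known as restraints on cell cycle genes and on BCL2 in B cells.

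The seed (bases 2 to 8, in capitals) is shared by the deleted microRNAs, and is shown because the search of the ribosomal protein messages for matching sites rests on it. Mature sequences are from RefSeq (GRCm38.p6), where miR-15a and miR-16-1 lie on chromosome 14 and miR-15b and miR-16-2 on chromosome 3.
miR-15a-5p: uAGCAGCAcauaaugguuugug
miR-15b-5p: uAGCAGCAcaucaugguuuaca
miR-16-5p: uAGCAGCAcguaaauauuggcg

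Ribosomal protein messages are known for short 3′ untranslated regions (UTRs), and few held a match to this seed. In GENCODE M21 transcripts (GRCm38), the heptamer TGCTGCT was found on the transcript strand in the longest 3′ UTR of 7 of the 80 members with one (8.75%), against 24.9% of 10596 other genes tested. The median length of the UTR was 175 bases for the members and 1145 bases for the other genes. Per kilobase of UTR the members held 0.306 matches and the other genes 0.203. The members' value rests on 10 matches, several of them in the long UTRs of Rpl22 and Rps15a given below. The part of UTR length in the lower share was not tested. Among the 7 members were Rpl6, Rpl22, Rpl28, Rps7, Rps15a and Rps24. They held 10 matches in all, of which 3 lay in Rpl22 and none was followed by an A. The longest 3′ UTR can belong to another transcript than the principal one, used for levels per kilobase below. It had 1647 bases in Rpl22 and 4728 in Rps15a, whose principal transcripts have 474 and 640 bases in all. In Rpl28 it had 559 bases, where the principal transcript has 772, of them 411 coding. Whether the messages in these cells held the matches was not tested. The windows below show the match in capitals for Rpl22, which has the most matches, for Rps7, the member with the most negative fold change among those above 50 CPM (counts per 1000000 of the TMM-scaled library total), and for Rpl28, the only 1 of the 7 with a positive fold change.
Rpl22 first site: tttaactgggcTGCTGCTcctt
Rpl22 second site: gatagggaagtTGCTGCTtcct
Rpl22 last site: gccacaagttcTGCTGCTgcgc
Rps7 site: tgggggcattcTGCTGCTgtga
Rpl28 site: ctgggactttgTGCTGCTgcag

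None of the 7 members with a match passed the test between the genotypes. Their log2 fold changes ran from −0.48 (Rps7) to 0.04 (Rpl28), 6 negative and 1 positive, with a median of −0.31 and a smallest adjusted p of 0.62 (edgeR quasi-likelihood test, Benjamini-Hochberg over 11363 genes). Over all 79 members tested 64 were negative, with a median of −0.19. Without control 1 the 7 were split 4 negative to 3 positive, with a median of −0.063. Rpl22, an RNA-binding large subunit protein required in mouse lymphocyte development, was at 255.7, 144.9, 193.6 and 143.0 CPM in control 1 to 4 and at 147.1, 153.6, 147.7 and 206.6 CPM in dKO 1 to 4. The groups overlapped, with control 1 highest in its group and dKO 4 in the other (log2 fold change −0.17 ± 0.21, SE, adjusted p = 0.84).

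Depth was 25565090 to 34954230 counts per library, and 3 counts were worth 0.0854 to 0.111 CPM, a limit for counting error alone. The deleted microRNAs could not be checked directly, since their 4 precursor genes had 0 counts in every library. Dleu2, which hosts the cluster on chromosome 14, was at 12.7 to 25.02 CPM in the control libraries and 72.2 to 111.4 CPM in those of dKO mice. Smc4, which hosts the cluster on chromosome 3, overlapped between the groups, at 71.3 to 163.8 CPM in control and 104.8 to 161.2 CPM in dKO libraries. A host transcript does not show whether a microRNA was removed. B cell markers were high throughout (summed level 22115 to 26205 CPM), while of 10 pro-B markers 8 were under 1 CPM on average, Kit was at 0, and Rag1 was at 0.017 CPM. Markers of other cells varied among libraries of 1 genotype. The summed level of 9 follicular B-2 markers was 5112 and 4580 CPM in control 2 and control 4 and 2596 to 3422 CPM in the other 6 libraries, and that of 10 myeloid markers ran from 542.5 to 5176 CPM. Ddx3y, a Y-linked gene, was detected in control 1, dKO 3 and dKO 4 only, so both sexes were present in the dKO group and the controls held 1 male.

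Of the 82 members, 74 stood at a mean of at least 50 CPM (31 of the small and 43 of the large subunit), a limit set after the levels were seen. All members together made up 7.45% to 11.2% of the counts of a library. Set per kilobase of the principal transcript, their levels ran from 117.7 to 11804 CPM per kb with a median of 1091 CPM per kb and quartiles of 540.4 and 1774 CPM per kb. The subunits had medians close to each other, 1093 CPM per kb for the small and 1042 CPM per kb for the large. Rpl13, a large subunit protein, was highest at 11804 CPM per kb, followed by the small subunit gene Rps19, which is mutated in Diamond-Blackfan anaemia in humans, at 4578 CPM per kb, and by Rpl32 at 4001 CPM per kb. The stalk proteins of the large subunit, which recruit translation factors, stood close together at 1798 (Rplp0), 1862 (Rplp1) and 1790 CPM per kb (Rplp2). Low among the 74 were Rps4l at 117.7, Rps21 at 184.6, Rpl39 at 201.0 and Rpl38 at 211.5 CPM per kb.

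**Figure D1:**
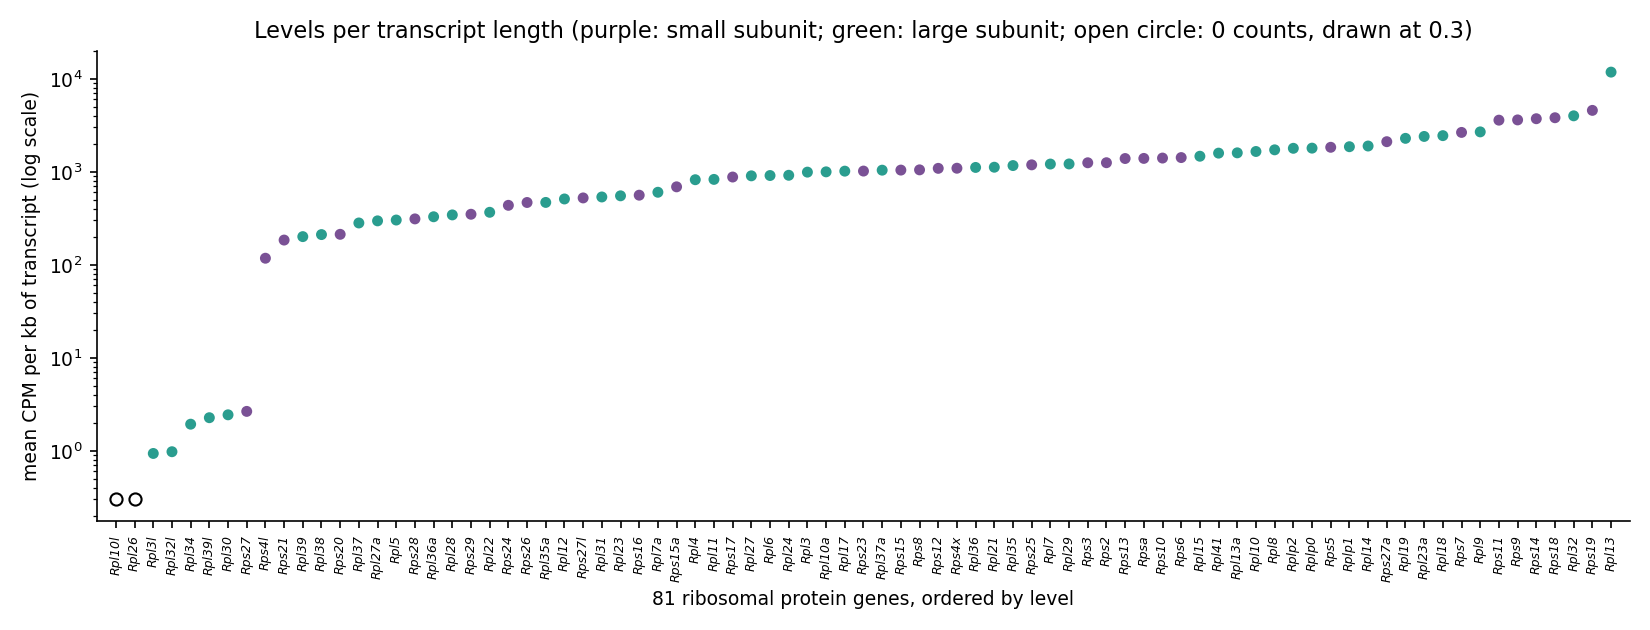
Mean level over the 8 libraries of 81 of the 82 genes, in CPM per kb of transcript on a log axis, ordered by level and coloured by subunit. A gap separates the 8 lowest genes, all under 3 CPM per kb, from the other 73, which start at 117.7 CPM per kb, and Rpl13 stands apart at the upper end.

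Below a wide gap in level lay 8 members. Among them were Rpl10l and Rpl39l, paralogs known from testis, and Rpl3l, known from skeletal muscle and heart. Rpl10l had 0 counts in all 8 libraries, Rpl39l 14 to 68 counts and Rpl32l, annotated as a processed pseudogene, 4 to 26 counts. The other 4 are core proteins that every mouse ribosome is thought to carry. Rpl26, a large subunit protein that also binds the p53 message, had 0 counts in every library, Rps27 20 to 36, Rpl34 14 to 42 and Rpl30 21 to 73 counts. A low value for these 4 rows says what the counting assigned to them, not what the cells held.

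Sequence shared with other genes was counted for these rows. In the GENCODE M21 annotation, 98.5% of the 75-base words of Rps27 also occur in other annotated genes, led by Rps27rt, and the share was 65.1% for Rpl30, 57.5% for Rpl26 and 41.4% for Rpl34. Among the 74 higher members the same share ran from 0% to 92.5% with a median of 50.1%. Rpl5 with 92.5% and Rpl10 with 91.9% shared words stood at 303.1 and 1654 CPM per kb. The rows of the leading partners, Rps27rt, Gm12191, Gm15772 and Rpl34-ps1, were at 0 counts too. The part of read assignment in these values was not tested. In 40 of the 82 members 50% or more of the words were shared, and values of such members are uncertain where the counting split or dropped shared reads.

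Near their annotated start, the promoters of the members carried the pyrimidine run that the 5′ TOP class is known for more often than other promoters did. Of the 82 members 61 matched the RefSeq promoter table (GRCm38.p6, 250 bases before to 50 after the start), with 73 promoters. A run of at least 8 C or T touching the 10 bases on either side of the start was present in 41.1% of these and in 13.7% of all 32851 promoters in the table. On either strand, CCGGAAG, the core bound by GABP, was present in 35.6% against 8.86% of all promoters and 18.7% of those of genes tested. AAGATGG, the core bound by YY1, was present in 15.1% against 6.34% and 7.48%. TATAAA was present in 9.59% of the members' promoters, in 13.6% of all and in 7.07% of those of genes tested. Motifs and windows were chosen after values of these data were seen, and matches say nothing of which factors bound.

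The windows below run from 15 bases before to 15 bases from the annotated start on, with the longest C or T run that touches the start region in capitals. The first 5 show long runs across the start in core members. The last 3 show Rplp0 and Rpl3l, whose levels departed from the other members in the results that follow, and Rps4x, a member without a run at its annotated start.
Rpl7a chr2:26910792-26910821 (+): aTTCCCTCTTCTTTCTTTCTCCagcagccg
Rpl35 chr2:39005117-39005146 (−): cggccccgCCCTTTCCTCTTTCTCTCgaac
Rpl15 chr14:18270972-18271001 (−): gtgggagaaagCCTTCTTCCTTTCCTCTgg
Rps10 chr17:27635230-27635259 (−): gcgccgcgcacgCCCCTTCCTTTCCagcct
Rps6 chr4:86857353-86857382 (−): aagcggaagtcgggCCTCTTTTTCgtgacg
Rplp0 chr5:115559452-115559481 (+): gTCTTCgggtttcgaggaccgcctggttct
Rpl3l chr17:24727811-24727840 (+): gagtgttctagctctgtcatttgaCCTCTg
Rps4x chrX:102189377-102189406 (−): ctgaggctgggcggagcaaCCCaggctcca

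The members moved together from library to library, and 1 library stood far above the rest. Summed over all members, the level was 132276 CPM in control 1, 69447 in control 2, 86435 in control 3 and 75139 CPM in control 4. In dKO 1 to 4 it was 74402, 77205, 71250 and 92619 CPM. Control 1 was thus 1.90-fold above the lowest library, control 2, and the second highest was dKO 4, at 1.33-fold. All 74 members above 50 CPM lay above their own 8-library mean in control 1, by 0.05 to 1.11 on the log2 scale (median 0.65). Control 1 was the highest library for 63 of the 74 (85.1%), against 909 of 2424 other genes tested at that level (37.5%). In dKO 4, 70 of 74 lay above their mean, by a median of 0.20, and 9 had their highest value there. Control 2 gave the lowest value for 35.

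**Figure D2:**
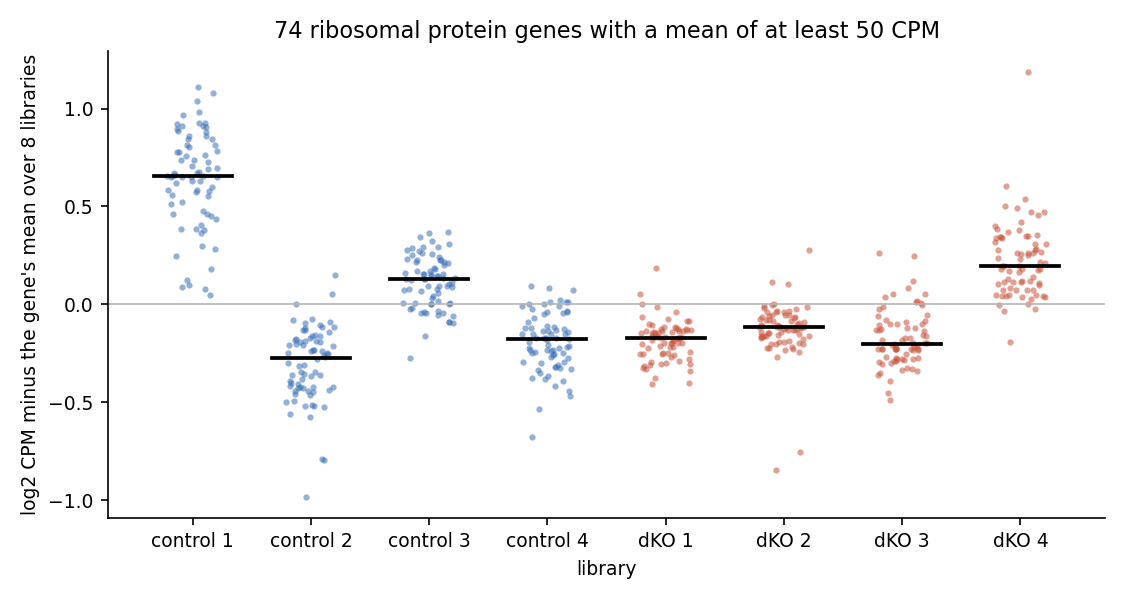
Each point is 1 of the 74 genes with a mean of at least 50 CPM, drawn as its log2 CPM minus its own mean over the 8 libraries; black bars are medians. The whole cloud is raised in control 1 (median 0.65) and to a lesser extent in dKO 4 (0.20) and control 3 (0.13), and the other 5 medians lie between −0.27 and −0.12.

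Both subunits took part in this pattern. In control 1 the median deviation was 0.69 for the small and 0.65 for the large subunit, and in control 2 it was −0.38 and −0.23. The ratio of small to large subunit counts ran from 0.624 in control 2 to 0.770 in control 1, with a mean of 0.692 ± 0.061 in the controls and 0.664 ± 0.027 in the dKO libraries (SD, n = 4 each). The median Pearson correlation between 2 members was 0.86 over the 8 libraries (2701 pairs, 99.7% above 0) and 0.74 over 7 libraries without control 1. These pairs share libraries, depth and scaling, and the correlation is given as a description. Around the shared level of the module, a gene's SD over libraries had a median of 0.14 on the log2 scale, against 0.34 before its removal.

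Control 1 stood apart from the other libraries in further measures. Its TMM factor was the lowest (0.848), which by itself raises every CPM value of this library and is no separate measure of the members. Without that factor the members took 11.2% of the counts of control 1, against 7.45% to 8.88% in the other libraries. Control 1 had the fewest genes detected (12489, against 12722 to 13430), and the smallest share of Rn45s, a ribosomal RNA gene (0.364%, against 0.509% to 1.83%). It had the highest summed level of 8 libraries in none of the 9 cell type marker lists and the lowest for pro-B markers. Translation factors with known 5′ TOP messages were raised in it as well. Of 21 such genes above 50 CPM, 16 had their highest value in control 1, where the sum of the list was 20363 CPM against 12282 to 14591 CPM elsewhere. Ribosome biogenesis factors were not raised in this way, with 8 of 29 highest in control 1 and a summed level that ranked 3 of 8. Of the 3 libraries with Ddx3y counts, control 1 and dKO 4 had the highest and the second highest summed level of the members. The third, dKO 3, had the second lowest. The part of RNA quality, sex or cell composition in the level of control 1 was not tested.

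Between the genotypes, no ribosomal protein gene passed the threshold of 0.05 on the adjusted p (quasi-likelihood test of edgeR). That is 0 of 79 members tested, against 10 of 11363 genes (0.088%), of which 7 were higher (0.0616%) and 3 lower (0.0264%). The 3 members not tested, for low counts, were Rpl10l, Rpl26 and Rpl32l. At an unadjusted p under 0.05 stood 2 members (2.53%), Rpl3l and Rps4l, against 10.8% of all genes. DESeq2 called 1 member, Rpl3l, where it called 2.83% of all genes, and limma voom called 0 members, where it called 2.48%. Without control 1 the edgeR test called 1 member, again Rpl3l (0.851% of all genes).

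The fold changes leaned downward in the dKO libraries, a lean that rested on control 1. Positive log2 fold changes numbered 15 of 79 (18.99%, against 47.7% of all genes) and negative ones 64, with a median of −0.19 against −0.02 for all genes tested. The median was −0.23 for the small subunit (27 of 31 negative) and −0.19 for the large (36 of 43 negative). Without control 1 the median was 0.06, 56 were positive and 23 negative, and 41 of 79 changed sign. Without control 2 and control 4, the libraries rich in follicular B-2 markers, the median was −0.48, 5 of 80 were positive, and 41 of 80 had an unadjusted p under 0.05 (14.2% of all genes in that fit), with 0 called (0.499% of all genes). Control 1 and control 3 were the only controls in that fit, so control 1 weighed more in it. The controls left out were also those with the lowest summed level of the members. The members' share of all counts was 8.76% ± 1.74 in the controls and 7.99% ± 0.67 in the dKO libraries (SD, n = 4 each), and 7.95% ± 0.74 in the controls without control 1 (SD, n = 3). The summed level of 10 B-1a markers was 422.0 to 806.3 CPM in the controls and 1037 to 1108 CPM in the dKO libraries, none of the markers at 0, and their part in the members' levels was not tested. In bulk samples, fewer cells of a type with high ribosomal protein messages and less of these messages per cell cannot be told apart.

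**Figure D3:**
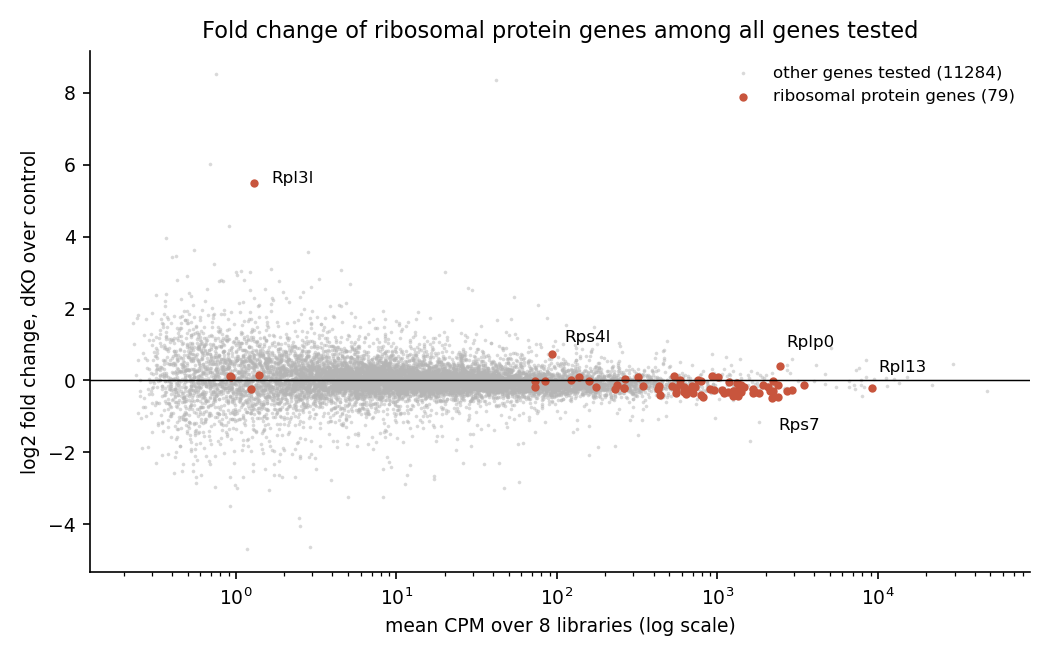
Log2 fold change, dKO over control, against mean CPM over 8 libraries on a log axis, for 79 ribosomal protein genes and the 11284 other genes tested. The abundant members form a narrow band from −0.48 (Rps7) to 0.39 (Rplp0), with Rps4l above it at 0.73 and the rare Rpl3l at 5.50.

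**Figure D4:**
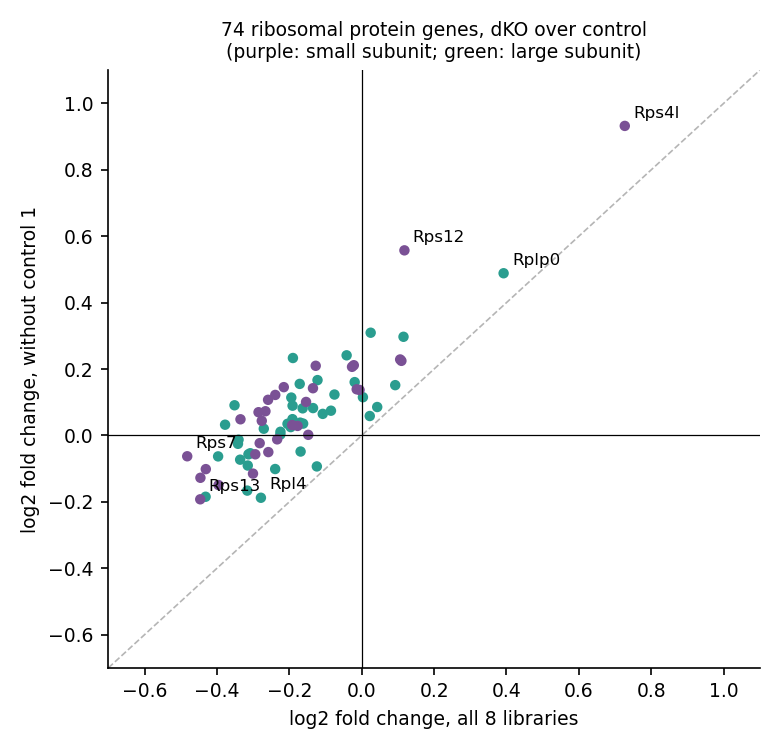
Log2 fold change of the 74 genes with a mean of at least 50 CPM, from all 8 libraries and without control 1, coloured by subunit; the dashed line marks equal values. Every gene lies above the line, and 40 of the 74 change sign.

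The member that differed most was Rpl3l, the muscle and heart paralog of Rpl3, a core protein near the peptidyl transferase centre. Rpl3l had 6, 0, 0 and 0 counts in control 1 to 4 and 77, 123, 86 and 11 counts in dKO 1 to 4. These are 0.219 CPM in control 1 and 2.19, 4.57, 2.96 and 0.375 CPM in the dKO libraries. The groups did not overlap, yet dKO 4 lay close to control 1, and both were near the level of 3 counts (0.0854 to 0.111 CPM). In non-overlap Rpl3l was the only member with higher dKO values (455 of all genes, 4%).

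The log2 fold change of Rpl3l was 5.50 ± 1.14 (SE, edgeR unadjusted p = 5.2e-04, adjusted p = 0.093). It passed the threshold without control 1 (adjusted p = 0.035), in DESeq2 (0.022) and when counts were scaled to the summed members (0.035), a scaling chosen after the values were seen that called 0.51% of all genes. Without control 2 and control 4 its adjusted p was 0.15. Against control 2 to 4, which were at 0, the dKO mean was at least 25.7-fold higher, taking 3 counts per library as the floor. For dKO 4 alone this bound was 3.8-fold, and control 1, the only control with counts, entered neither value. Per 1000 counts of Rpl3, Rpl3l reached 0.098 in control 1 and 2.23, 3.92, 2.75 and 0.279 in the dKO libraries, so it stayed a minor form. Of the 8 nearest genes tested on chromosome 17, chosen after the values were seen, none was called; Rps2, one of them, had a log2 fold change of −0.30 ± 0.20 (adjusted p = 0.65) and Msrb1, next to Rpl3l, one of 0.31 ± 0.37 (adjusted p = 0.84). No 75-base word of Rpl3l occurs in another annotated gene.

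**Figure D5:**
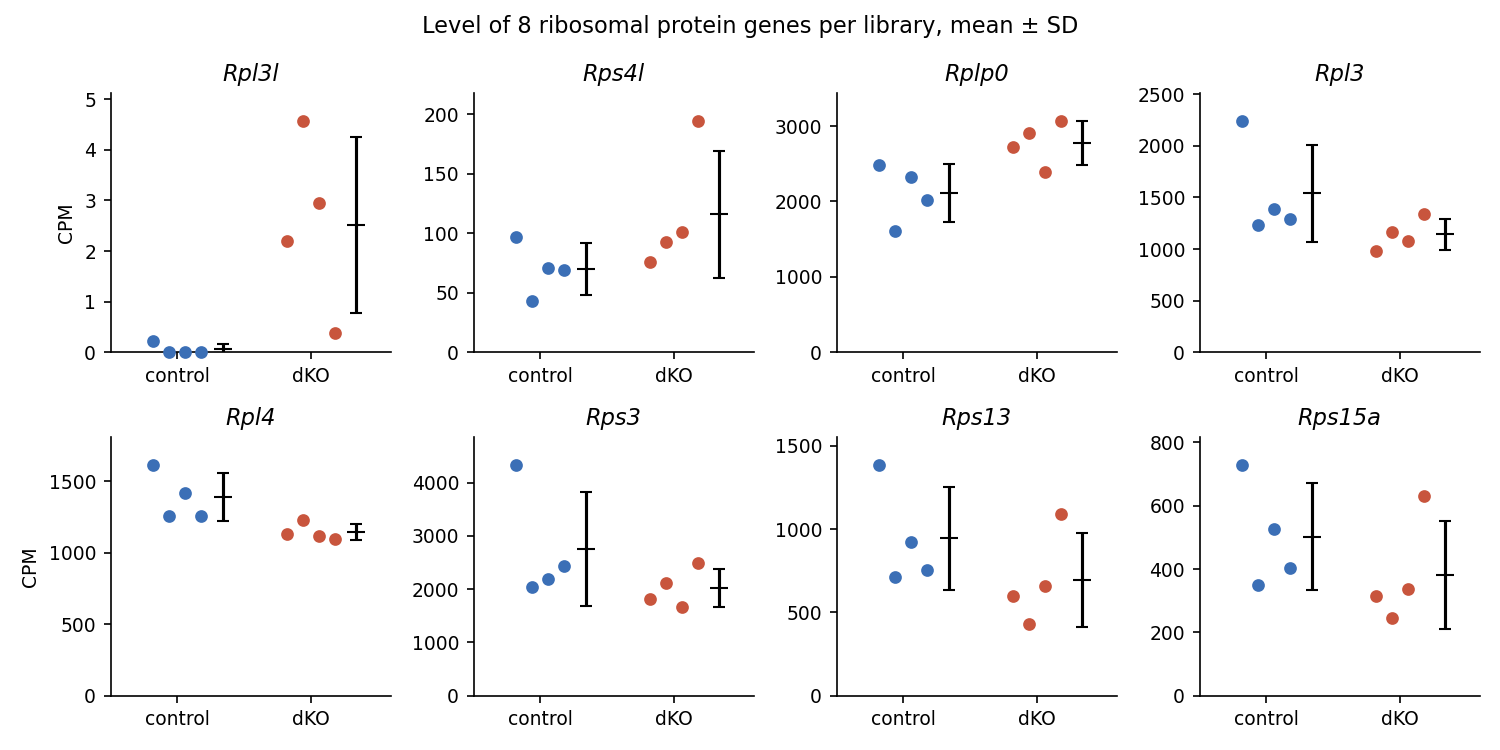
Level in CPM, on linear axes from 0, of 8 ribosomal protein genes in control 1 to 4 and dKO 1 to 4 (points, left to right), with the mean and SD of each group (bars, n = 4). Rpl3l and Rpl4 separate the groups, Rplp0 overlaps between 2389 and 2482 CPM, and in Rpl3 and Rps3 control 1 stands above all other libraries.

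Rps4l, a transcribed processed pseudogene related to the small subunit gene Rps4x, was at 96.6, 43.2, 70.6 and 69.5 CPM in control 1 to 4. In the dKO libraries it was at 75.7, 92.2, 101.2 and 194.2 CPM. The groups overlapped, and dKO 4 was well above the other libraries. The log2 fold change was 0.73 ± 0.31 (SE, edgeR unadjusted p = 0.039, adjusted p = 0.43). Rps4x itself had a mean of 1161 ± 306 CPM in control and 970.7 ± 77.5 CPM in dKO mice (SD, n = 4 each; −0.26 ± 0.19, SE, adjusted p = 0.71). In 8.11% of its words Rps4l shares sequence with another annotated gene.

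Among the stalk proteins Rplp0 had a larger fold change than Rplp1 and Rplp2, its partners in the stalk. Rplp0 was at 2482, 1613, 2326 and 2025 CPM in control 1 to 4 and at 2726, 2905, 2389 and 3065 CPM in dKO 1 to 4. Only dKO 3 lay within the range of the controls, below control 1. The log2 fold change was 0.39 ± 0.18 (SE, edgeR adjusted p = 0.48). As a share of all counts of the members, Rplp0 took 1.88%, 2.32%, 2.69% and 2.70% in control 1 to 4 and 3.66%, 3.76%, 3.35% and 3.31% in dKO 1 to 4, where the groups did not overlap. Scaled to the summed members, its log2 fold change was 0.56 ± 0.15 (SE, edgeR unadjusted p = 0.0017, adjusted p = 0.13), still not called. That scaling moved the median of all genes tested to 0.11. Rplp1 and Rplp2 had log2 fold changes of 0.12 ± 0.25 and 0.00 ± 0.22 (adjusted p = 0.92 and 1.00), with dKO 4 highest for both. Scaled to the summed members, theirs were 0.30 ± 0.16 and 0.17 ± 0.17 (SE), the same direction as Rplp0, and neither was called. A difference among the stalk genes was not tested.

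Relative to the summed members, 4 of 79 members tested had all dKO libraries above all controls, a share close to the 4.46% of all genes. These were Rplp0, Rps4l, Rpl3l and Rpl15. Below all controls were 2, Rpl3 and Rpl24, against 0.704% of all genes. Scaling to the members moved the median of all genes up to 0.11, and in CPM the share below all controls was 2.96%. The 0.704% is therefore no independent background for the members. For Rpl15 the gap was very narrow, from 1.377% of the members' counts in control 4 to 1.378% in dKO 3. So was that of Rpl24, from 0.742% in dKO 4 to 0.744% in control 3. Rpl3 took 1.70% ± 0.07 of the members' counts in the controls and 1.45% ± 0.09 in the dKO libraries (SD, n = 4 each), and Rpl24, known from the Belly spot and tail mouse, 0.757% ± 0.009 and 0.702% ± 0.029. Neither was called in that scaling, with log2 fold changes of −0.23 ± 0.13 and −0.11 ± 0.13 (SE, edgeR adjusted p = 0.77 and 1.00). In CPM Rpl3 stood at 2239, 1236, 1390 and 1294 in control 1 to 4 and at 984.8, 1165, 1074 and 1344 in dKO 1 to 4, where dKO 4 overlapped with the controls (−0.43 ± 0.22, adjusted p = 0.52).

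Rpl4, a large subunit protein with an arm reaching into the exit tunnel, was the only member whose dKO values in CPM all lay below the controls (2.96% of all genes). Rpl4 was at 1614, 1259, 1414 and 1259 CPM in control 1 to 4 and at 1134, 1224, 1116 and 1098 CPM in dKO 1 to 4. The gap between the groups was narrow, from 1224 to 1259 CPM, and the difference was not called (log2 fold change −0.28 ± 0.16, SE, edgeR adjusted p = 0.57). Of the members with negative values, Rpl3, Rpl7, Rpl4, Rps6 and Rps3 had the smallest p, in this order. Rps3, at the mRNA entry of the small subunit and also a DNA repair protein, was at 4339, 2045, 2200 and 2429 CPM in the controls and 1812, 2117, 1673 and 2484 CPM in dKO 1 to 4 (−0.45 ± 0.25, adjusted p = 0.58). Rps6, the substrate of S6 kinase, was at 2289 CPM in control 1 and at 945.2 to 1221 CPM in the other 7 libraries (−0.43 ± 0.24, adjusted p = 0.58; −0.10 ± 0.14 without control 1, adjusted p = 0.82).

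No member with a known role outside the ribosome was called. Rpl5 and Rpl11, which bind MDM2 with 5S RNA and thereby stabilise p53 when ribosome assembly fails, had log2 fold changes of −0.27 ± 0.22 and −0.16 ± 0.20 (SE, edgeR adjusted p = 0.73 and 0.84). Rps27l, a paralog of Rps27 and a p53 target, had one of −0.22 ± 0.31 (0.87). Rpl13a, part of a complex that silences inflammatory messages, had one of −0.34 ± 0.24 (0.67), and Rpsa, which doubles as a laminin receptor, −0.28 ± 0.22 (0.72). Rps14 and Rps19, mutated or lost in human bone marrow failure, were at −0.02 ± 0.23 and −0.26 ± 0.27 (0.99 and 0.81). Rpl10, Rpl10a, Rpl38 and Rps25, known for selective translation of some messages, lay between −0.24 and −0.08, none called.

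Variation over the 8 libraries, both groups together, was unequal among the members. Among genes with a mean of at least 100 CPM, Rpl21 and Rpl4 were among those with the smallest SD of log2 CPM over the 8 libraries (0.14 and 0.19). Rpl21 lay at 853.9 to 1099 CPM, and control 1 was not its highest library. The largest SDs were those of Rps12 (0.55), Rps15a (0.54) and Rps13 (0.53). Rps12, known from cell competition in Drosophila, was at 916.6, 292.2, 539.6 and 317.0 CPM in control 1 to 4 and at 492.6, 544.2, 487.9 and 716.7 CPM in dKO 1 to 4. Control 2 and control 4 were lowest for it.

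Rps13 and Rps15a, small subunit genes that both lie on chromosome 7, deviated together. Rps13 was at 1386, 714.2, 924.3 and 753.3 CPM in control 1 to 4 and at 596.0, 430.2, 658.6 and 1088 CPM in dKO 1 to 4. Rps15a was at 729.5, 349.0, 525.8 and 401.9 CPM in the controls and at 313.5, 245.7, 335.9 and 629.8 CPM in the dKO libraries. For both, dKO 2 was lowest and dKO 4 highest within the dKO group, also after the shared level was taken out (r = 0.96 over 8 libraries, a pair chosen after its values were seen). Their fold changes were not called (−0.45 ± 0.29 and −0.40 ± 0.31, SE, edgeR adjusted p = 0.65 and 0.72). Of their 75-base words, 78.6% in Rps13 and 37.3% in Rps15a also occur in other annotated genes. The part of read assignment in their levels was not tested.

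Relatives with other names were read beside the members, with 0 called. Rps3a1, a small subunit protein gene on chromosome 3, was the most variable of them. It was at 4417, 2440, 1545 and 1391 CPM in control 1 to 4 and at 188.9, 225.5, 1215 and 1424 CPM in dKO 1 to 4. Of the dKO libraries, dKO 1 and dKO 2 lay far below all controls, dKO 3 just below them and dKO 4 within their range (−1.68 ± 0.73, SE, edgeR unadjusted p = 0.049, adjusted p = 0.46). Fau, Rack1, Rpl36al, Rpl22l1 and Rpl7l1 had log2 fold changes between −0.29 and −0.07.

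Genes of the ribosome's supply lines were likewise not called, and 47.7% of all genes tested had positive log2 fold changes. Of 64 ribosome biogenesis genes, 11 had positive and 53 negative log2 fold changes, with a median of −0.16. At an unadjusted p under 0.05 (edgeR) stood 5 of the 64, a smaller share than the 10.8% of all genes tested. Polr1e, a subunit of RNA polymerase I, had a mean of 27.1 ± 6.9 CPM in control and 18.9 ± 0.9 CPM in dKO mice (SD, n = 4 each; −0.52 ± 0.19, SE, edgeR adjusted p = 0.32), and Emg1, a ribosomal RNA methyltransferase, at 253.1 ± 45.5 and 193.0 ± 13.2 CPM (−0.39 ± 0.16, adjusted p = 0.40). Of 24 translation factors with 5′ TOP messages, 5 were positive and 19 negative, with a median of −0.21 (Eif3e −0.52 ± 0.21, adjusted p = 0.38; Eif4a2 −0.35 ± 0.18, adjusted p = 0.54). Without control 1, the library in which most of these factors were highest, 7 were positive and 17 negative, with a median of −0.047. The biogenesis genes were then split 8 to 56, with a median of −0.18.

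Regulators of 5′ TOP translation were split 10 to 8, with a median of 0.04. Rps6ka1, an S6 kinase family member that acts below ERK, was at 17.2, 15.4, 23.8 and 17.01 CPM in control 1 to 4. It was at 30.1, 30.2, 31.7 and 23.5 CPM in dKO 1 to 4. Control 3 and dKO 4 overlapped by a small margin (0.66 ± 0.18, SE, edgeR unadjusted p = 0.0031, adjusted p = 0.16). Eif4e, the cap-binding protein, had a log2 fold change of −0.37 ± 0.17 (adjusted p = 0.46). Chaperones and importins of ribosomal proteins were split 5 positive to 9 negative (median −0.13; Brix1 −0.35 ± 0.16, adjusted p = 0.48; Grwd1 −0.34 ± 0.20, adjusted p = 0.59). Ribosome quality control genes were split 10 to 7 (median 0.10; Zfp598 0.59 ± 0.39, adjusted p = 0.65; Map3k20 −1.33 ± 0.66, adjusted p = 0.52). Genes of nucleolar stress and p53 were split 7 to 8 (median −0.09; Mdm4 0.60 ± 0.30, adjusted p = 0.52; Sesn2 0.70 ± 0.43, adjusted p = 0.63).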

How the data were processed

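Column-purified RNA was amplified by SMART-seq before library preparation with a SMARTER kit, per the labels' protocols. Trimmomatic, STAR and featureCounts were used on GRCm39, per the submitters' processing notes. Tool versions, annotation, strand setting and treatment of multi-mapping reads: not given in the sources used here. Deposited values are the raw, unscaled read counts per gene from the authors, and 3 further value columns were not used. Of counts below 20, 72.7% to 77.3% per library were even, as when each mate of a pair counts, in which case there were fewer fragments than counts.

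Samples were grouped by title. Genes were filtered with filterByExpr, TMM-scaled and tested with edgeR 4.0.16 in R 4.3.3 (quasi-likelihood F test, robust, genotype as the only term, Benjamini-Hochberg over 11363 genes, threshold 0.05; SE from the fold change and F), fold changes being dKO over control. log2 CPM used a prior count of 2. The code was tested on simulated data. Features came from GENCODE M21 and RefSeq (GRCm38), another build than the authors', with python 3.11.15.

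Members and lists were chosen with earlier results of these data known. Named genes were those with the 5 smallest p per direction, the 3 highest and 3 lowest levels, the 3 largest and smallest SDs above 100 CPM, and members with known roles; for other lists, the 2 smallest p. Rps7, Rpl6, Rpl15, Rpl24, Rpl28, Rpl30, Rpl26, Rps24, the promoter examples, the 75-base words and the neighbours of Rpl3l were picked with their values in view. A few genes are not reported by name here. The fit was repeated with RLE, upper quartile or no scaling, TMM without the members, no filter, a minimum of 5 CPM in 4 libraries, DESeq2 1.42.0, limma 3.58.1 voom with quality weights, a replicate block, halved counts, an adjusted p under 0.1, leaving out libraries, and, added after seeing the data, scaling to the members' summed count.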

Additional observations from a re-analysis of the deposited data

Results flagged for a closer look

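In groups of 4, 1 library stood far from the other 3 for 13 of the 36 named genes with values (a ratio of the gap to the range above Dixon's critical value). Over the 74 members above 50 CPM, 24 of 148 groups were marked in this way (16.2%), where chance marks about 1 in 20; the members vary together, so these are not 24 separate events.

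Control 1 was the high library in 9 of the 13. It stood at 14222 CPM for Rpl13, 2947 CPM for Rpl13a, 3608 CPM for Rpsa, 4339 CPM for Rps3, 2289 CPM for Rps6, 2239 CPM for Rpl3, 1998 CPM for Rpl7, 1038 CPM for Rpl5 and, against 0 in the other controls, 0.219 CPM for Rpl3l. The library dKO 4 was high in the other 4, at 777.7 CPM for Rpl11, 312.8 CPM for Rps27l, 206.6 CPM for Rpl22 and 196.6 CPM for Rpl36a.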

How the results depend on the processing

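The count of genes called over the table, 10 with all libraries, was 17 with library totals only, 40 without a filter, 322 in DESeq2, 282 in limma voom, 59 without control 2 and control 4, 58 when scaled to the ribosomal protein genes and 75 at an adjusted p under 0.1, and 4 to 98 with 1 library left out. The count of members called stayed at 0 except in DESeq2, the scaling to the members, the adjusted p under 0.1 and the fit without control 1, where it was 1 (Rpl3l each time), so it was 0 to 1 with 1 library left out. The median log2 fold change of the members was −0.32 to 0.06 with 1 library left out, positive only without control 1, and the difference in share of counts, dKO minus control, was −1.21 to 0.046 percentage points. Rpl3l ranged from 5.04 to 9.26 with 1 library left out, and was 4.49 without control 2 and control 4. The cause of these changes was not tested.

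Fold changes near 0 changed sign in several settings, none of them called. These were Rplp2 −0.0068 with RLE, Rplp2 −0.0068 in DESeq2, Rpl36a 0.043 and Rps14 0.046 with library totals, and Rpl41 0.0037, Rplp2 −0.064 and Rps14 0.033 in voom. Without control 2 and control 4 they were Rpl21 −0.061, Rpl34 −0.21, Rpl39 −0.38, Rplp1 −0.22, Rplp2 −0.28, Rps12 −0.37 and Rps26 −0.17. Scaled to the ribosomal protein genes, a setting added after the data were seen, they were Rpl10 0.11, Rpl10a 0.033, Rpl11 0.027, Rpl22 0.019, Rpl36a 0.17, Rpl38 0.029, Rpl39l 0.076, Rpl41 0.076, Rps14 0.17, Rps25 0.011 and Rps27l 0.034. With 1 library left out, the log2 fold changes that crossed 0 ranged as follows: Rpl10 −0.20 to 0.12, Rpl10a −0.33 to 0.11, Rpl11 −0.27 to 0.036, Rpl13 −0.29 to 0.035, Rpl22 −0.31 to 0.039, Rpl34 −0.11 to 0.45, Rpl36a −0.15 to 0.16, Rpl38 −0.38 to 0.090, Rpl39 −0.14 to 0.31, Rpl39l −0.53 to 0.21, Rpl41 −0.34 to 0.16, Rpl5 −0.37 to 0.020, Rplp1 −0.075 to 0.30, Rplp2 −0.16 to 0.12, Rps12 −0.076 to 0.56, Rps14 −0.16 to 0.21, Rps19 −0.42 to 0.11, Rps25 −0.39 to 0.12, Rps26 −0.0048 to 0.22, Rps27 −0.061 to 0.26 and Rps27l −0.43 to 0.15. Upper quartile scaling, TMM without the members, halved counts and CPM above 5 (which leaves out the rarest members) changed no sign among the named genes.

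Libraries with the same number did not deviate together (correlations −0.0089, −0.071, 0.061 and 0.15 over genes), so the numbers were not taken to pair them. With the replicate block 9 genes and 0 members were called, the median of the members was −0.14, and Rpl36a 0.017, Rpl39l 0.065 and Rps14 0.0085 changed sign. Depth limits Rpl3l, Rpl30, Rpl34, Rpl39l and Rps27, which have at most 123 counts in any library, and the SE of the members above 50 CPM had a median of 0.23 on the log2 scale.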
